A study of Mus musculus with 6 samples.

Results

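The genes described here are the expressed long intergenic non-coding RNA (lincRNA) genes of T cells cultured with ovarian cancer cells. Members were chosen by 2 criteria, the type lincRNA in the gene table and a mean level over the 6 libraries of 2 FPKM or more. FPKM is fragments per kilobase of transcript, scaled to a total for each library, and so a level per length. The 2 criteria gave 143 of the 5559 lincRNA genes, among 54532 genes of all types. Of the 5559, 2838 had no read in any library and 2721 had at least 1. The T cells were isolated from the spleens of C57BL/6 mice, activated with anti-CD3/CD28 beads and IL-2, and cultured with ID8, a mouse ovarian cancer cell line. The paper describes the ID8 cells as pretreated with cisplatin, a platinum drug that crosslinks DNA, and gives no dose for this co-culture. The labels list 40 µM cisplatin for the cisplatin group (3 libraries) and no dose for the control group (3 libraries). They name only the T cells and the drug, so which cells received that dose is not settled. Both groups therefore shared the activation and the ID8 co-culture, ID8 is a single line, and no T cells cultured alone were analysed here. Nothing states that the replicates came from separate mice, so p-values measure the spread between these libraries, which may be technical.

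LincRNAs are transcribed from their own loci and are mostly spliced and polyadenylated like mRNA, but are not known to encode a conserved protein. Some act as nuclear scaffolds (Malat1, Neat1), one silences a chromosome (Xist), some carry small nucleolar RNAs or microRNAs in the same primary transcript, and many have no assigned function. As a class they are lower in level and more restricted to single cell types than mRNAs.

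Because 3 members are the primary transcripts of microRNAs that are well known in lymphocytes, the mature sequences they carry are given first, from RefSeq (GRCm38.p6), 5′ to 3′, with the seed (bases 2 to 8) in capitals. Mature microRNAs were not measured in these poly(A)-selected libraries; only the host transcripts were. The guide-strand sequences of Mir142hg (chr11), Mir155hg (chr16) and Mir17hg (chr14) are:
mmu-miR-142a-5p: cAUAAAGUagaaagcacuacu
mmu-miR-142a-3p: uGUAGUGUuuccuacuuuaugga
mmu-miR-155-5p: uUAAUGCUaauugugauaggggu
mmu-miR-17-5p: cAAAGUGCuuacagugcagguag
mmu-miR-20a-5p: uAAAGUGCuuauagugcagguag
mmu-miR-18a-5p: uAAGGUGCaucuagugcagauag
mmu-miR-19a-3p: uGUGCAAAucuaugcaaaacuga
mmu-miR-19b-3p: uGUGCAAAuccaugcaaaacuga
mmu-miR-92a-3p: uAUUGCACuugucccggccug

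Within the Mir17hg cluster, miR-17-5p and miR-20a-5p shared the seed AAAGUGC, and miR-19a-3p and miR-19b-3p shared GUGCAAA, while miR-18a-5p (AAGGUGC) and miR-92a-3p (AUUGCAC) each had their own. In all, 20 mature microRNAs lay on the same strand within 6 members.

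The libraries held 30606569 to 32169496 reads on genes. T-cell identity markers were present in every library, and 25 of 26 were higher with cisplatin (summed level 2029 to 2158 FPKM in controls, 3186 to 3259 FPKM with cisplatin; median log2 fold change 0.60). All 26 tested ID8 tumour markers were called lower (2190 to 2274 FPKM against 381 to 394 FPKM; median -2.29), and 3 further ones were under 1 FPKM in every library. B-cell markers, a type that pan-T isolation should remove, were also present and higher in 10 of 10 (1690 to 1778 FPKM against 3619 to 3695 FPKM; median 0.60), as were 10 of 12 myeloid markers (91.7 to 95.1 FPKM against 173 to 197 FPKM; median 1.05), with 1 lower. These marker levels moved with the groups in every comparison below, and their part in the lincRNA differences was not tested. In bulk libraries, fewer cells of a type and less RNA per cell cannot be told apart.

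Of the 143 lincRNA genes, 22 were at least 2-fold lower and 7 at least 2-fold higher in the cisplatin libraries. Among all 15874 genes tested, the share called by the same rule (limma, adjusted p below 0.05 with a 2-fold or larger difference) was 12.8% lower and 4.11% higher, against 15.4% and 4.9% of the lincRNA genes. Smaller differences ran mostly upwards. By adjusted p alone, 34 members (23.8%) were lower, 60 (42.0%) were higher and 49 did not pass. Over all tested genes the shares were 29.0% lower and 27.5% higher. Among the 11587 genes of any type that reach 2 FPKM on average, the closer background, 12.0% were called lower and 3.32% higher, and by adjusted p alone 32.4% were lower and 33.0% higher. The 3 cisplatin values and the 3 control values did not overlap for 103 members (72.0%), against 64.2% of all tested genes and 71.8% of those reaching 2 FPKM. They lay lower for 36 members (25.2%) and higher for 67 (46.9%). The same shares were 32.3% and 31.9% of all tested genes, and 35.2% and 36.6% of those reaching 2 FPKM. The median log2 fold change over the members was 0.19, against 0.03 over all tested genes. The mean level chose the members, so a gene high in only 1 group could enter through that group: 107 members had both group means at or above 2 FPKM, 17 had only the control mean there (12 of them called lower), and 19 only the cisplatin mean (3 of them called higher).

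The direction of the small rises depended on the scaling. With each library centred on its T-cell identity markers, which assumes that these did not change, the median over all tested genes became -0.51 and that over the members -0.34, and 32 members were called lower and 1 higher. Of the 60 members that had passed higher, 21 then had a negative log2 fold change, 16 still passed higher and 2 passed lower. Those with a negative value that are named below are AU020206 (-0.0288), Epb41l4aos (-0.0222), Gm44174 (-0.11), Gm44175 (-0.0468), Gm39323 (-0.22) and Snhg20 (-0.16), and Mir155hg was at 0.0108. With quantile normalization the split was 20 lower and 15 higher.

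**Figure D1:**
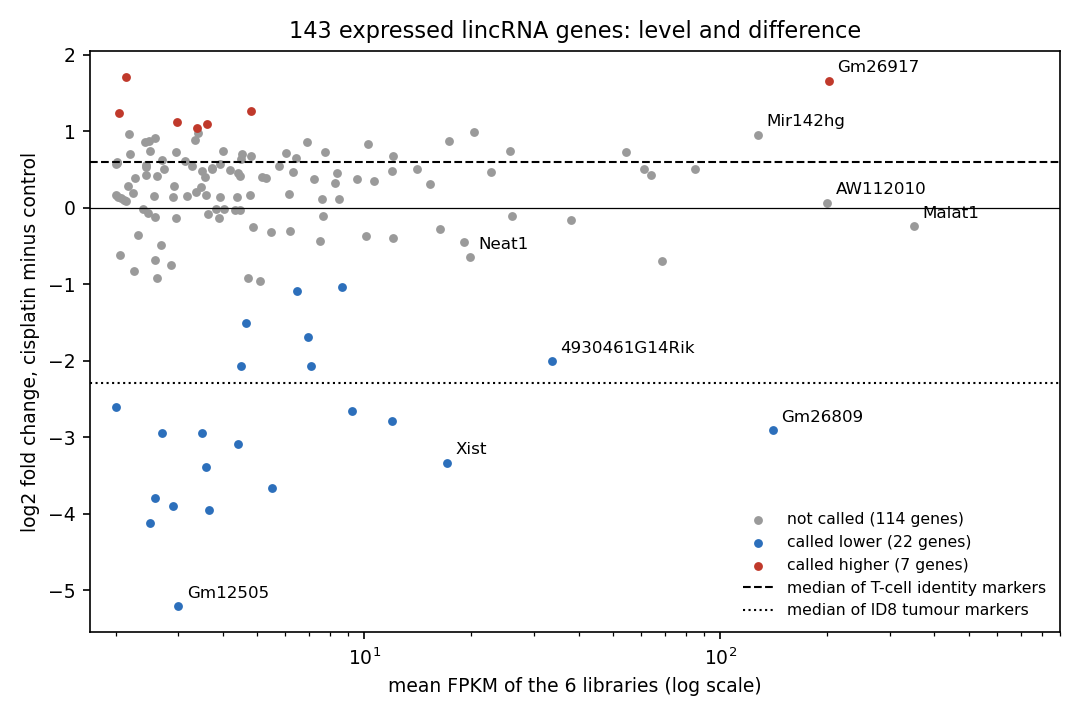
Each point is 1 of the 143 lincRNA genes, at its mean FPKM over the 6 libraries (horizontal, log scale) and its log2 fold change, cisplatin minus control (vertical). The 22 called lower (blue) reached -5.20 and include highly expressed Gm26809, the 7 called higher (red) reached 1.71, and the dashed and dotted lines mark the medians of the T-cell (0.60) and ID8 (-2.29) marker lists.

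Levels were unequal. The median member had a mean of 4.19 FPKM, 87 members lay between 2 and 5 FPKM, 40 between 5 and 20 FPKM, 16 at 20 FPKM or more, and 5 at 100 FPKM or more. In descending order of mean level, the 10 highest were Malat1, Gm26917, AW112010, Gm26809, Mir142hg, AU020206, Gm10076, Gm44174, Epb41l4aos and Gm42047, and they held 60.3 ± 0.535% (SD, n = 3) of the members' summed FPKM in controls and 64.3 ± 0.568% (SD, n = 3) with cisplatin. That sum was similar in both groups, at 2168.5 ± 22.5 FPKM in controls and 2179 ± 98.8 FPKM with cisplatin (SD, n = 3 each). Its make-up differed: Gm26917 alone held 4.49% in controls and 14.1% with cisplatin, and without it the sums were 2071 ± 30.7 FPKM and 1871 ± 79.3 FPKM. Of all reads on genes, the members took 0.715% in controls and 0.682% with cisplatin.

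The order of levels was not the same in both groups. Gm26917 and AW112010 had near-equal means over the 6 libraries (202.5 and 200.3 FPKM), but Gm26917 was the lower of the pair in every control library and the higher in every cisplatin library. Gm44174 (63.9 FPKM) and Epb41l4aos (61.0 FPKM) overlapped in both groups and were not separated by their spread. Gm10076 was the noisiest of the 10, at 55.7, 77.5 and 122.7 FPKM in the control libraries and 43.2, 73.1 and 39.6 FPKM in the cisplatin libraries; the groups overlapped and it did not pass the test (log2 fold change -0.69, SE 0.337, adjusted p = 0.125). Its transcript is a single exon of 384 bases. AU020206 lay at 71.7, 69.4 and 69.7 FPKM in the control libraries and 98.3, 99.7 and 101.2 FPKM in the cisplatin libraries and was higher without overlap in the scaling as deposited (log2 fold change 0.505, SE 0.0281, adjusted p = 1.07e-05). Gm42047 lay at 43.2, 40.8 and 38.6 FPKM in the control libraries and 68.8, 68.3 and 67.4 FPKM in the cisplatin libraries and was also higher without overlap (log2 fold change 0.74, SE 0.0445, adjusted p = 1.56e-05); a gene model on the same strand, Gm20388, spans it. Neither has a function that could be given here with certainty.

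Malat1 and Neat1, which act in the nucleus, were lower. Malat1, an abundant RNA of nuclear speckles, lay at 395.5, 364.0 and 376.2 FPKM in the control libraries and 286.2, 348.4 and 327.7 FPKM in the cisplatin libraries. It had the highest mean of all members in both groups, although Gm26917 exceeded it in cisplatin replicate 1, and every cisplatin value was below every control value (log2 fold change -0.24, SE 0.0753, adjusted p = 0.0305). Malat1 did not pass without cisplatin replicate 3, control replicate 1 or control replicate 3, with values of -0.26, -0.21 and -0.25. Neat1, the scaffold of paraspeckles, lay at 24.2, 24.4 and 23.9 FPKM in the control libraries and 14.8, 15.97 and 15.6 FPKM in the cisplatin libraries, a clear gap between groups (log2 fold change -0.64, SE 0.0399, adjusted p = 1.81e-05). Both genes lie on chromosome 19, Malat1 at chr19:5795690-5802672 and Neat1 at chr19:5824708-5845478 (mm10). 2900097C17Rik, the mouse Norad gene, whose RNA binds Pumilio proteins mainly in the cytoplasm, lay at 39.8, 40.8 and 39.8 FPKM in the control libraries and 35.6, 36.5 and 36.1 FPKM in the cisplatin libraries. The groups did not overlap (log2 fold change -0.15, SE 0.0285, adjusted p = 0.00347), but the size depended on the scaling, at -0.688 with centring on T-cell identity markers and at -0.0714 with voom on rebuilt reads, where it did not pass (adjusted p = 0.0884).

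Xist, which coats and silences 1 X chromosome in female cells, lay at 33.4, 29.9 and 30.1 FPKM in the control libraries and 3.05, 2.87 and 3.09 FPKM in the cisplatin libraries. All control values were well above the cisplatin values, and the 3 libraries of each group lay close together (log2 fold change -3.33, SE 0.0608, adjusted p = 1.27e-07; 16097 to 18016 reads in controls). Xist (chrX:103460366-103483254) was the only member on the X chromosome. Tsix, its antisense partner, was below 0.05 FPKM in every library. The single member on the Y chromosome, Gm29650, named after its values were seen, lay at 2.47, 1.62 and 1.23 FPKM in the control libraries and 3.29, 3.01 and 3.33 FPKM in the cisplatin libraries and was higher without overlap (log2 fold change 0.87, SE 0.233, adjusted p = 0.0172), as was its nearest coding gene Eif2s3y (log2 fold change 0.51). Gm29650 did not pass without cisplatin replicate 1 (0.86) or 3 (0.85), without control replicate 2 (0.84), or with the centring (0.34). Reads of Xist and of the Y-linked Gm29650 were therefore present in both groups. Why their levels differed between the groups was not tested. Of the 10 listed genes for nuclear architecture and X-inactivation found in the table, 8 were tested, 5 were lower, 2 higher and 1 did not pass. The non-members among them included Firre, an X-linked lncRNA that fell by 1.34 on the log2 scale, and Ftx, which lies near Xist and was higher at 0.63.

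Mir142hg, Mir17hg and Mir155hg, the 3 members on the microRNA host list, were higher in the scaling as deposited. Mir142hg, the primary transcript of miR-142a, a microRNA of blood cells, lay at 83.1, 84.8 and 92.6 FPKM in the control libraries and 165.5, 165.7 and 174.9 FPKM in the cisplatin libraries. Its cisplatin mean of 168.7 ± 5.38 FPKM was 1.94 times its control mean of 86.8 ± 5.04 FPKM (SD, n = 3 each), just under the 2-fold minimum (log2 fold change 0.96, SE 0.0487, adjusted p = 7.10e-06). Mir17hg, which carries the miR-17 to miR-92a cluster that promotes lymphocyte proliferation, lay at 1.98, 1.47 and 1.61 FPKM in the control libraries and 3.08, 3.6 and 2.77 FPKM in the cisplatin libraries, without overlap (log2 fold change 0.86, SE 0.15, adjusted p = 0.00258). Mir155hg, the transcript of miR-155, which is induced by antigen receptor signalling, lay at 5.39, 5.19 and 3.57 FPKM in the control libraries and 7.12, 6.84 and 6.5 FPKM in the cisplatin libraries. These groups did not overlap either, although 1 control library lay well under the other two (log2 fold change 0.54, SE 0.156, adjusted p = 0.0224). Mir155hg did not pass without cisplatin replicate 1 (0.51) or 2 (0.54). With the centring on T-cell identity markers, Mir155hg stood at 0.0108 (adjusted p = 0.959) and Mir17hg at 0.33 (adjusted p = 0.0957), and neither passed, while Mir142hg passed at 0.43. Of the other 3 members with a mature microRNA on their strand, Snhg20 and 2900076A07Rik were higher (0.38 and 0.73) and E130102H24Rik, the host of miR-101a, did not pass (0.405, adjusted p = 0.0593). Of 8 listed microRNA hosts in the table, 5 were tested, 3 were higher, 1 lower and 1 did not pass; the lower one was Mir22hg, typed as a processed transcript and so no member (-1.03).

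Among the small nucleolar RNA hosts, whose introns release guides for ribosomal RNA modification, 2 of the 4 members passed the test, both higher. Snhg6 lay at 14.01, 20.1 and 19.8 FPKM in the control libraries and 13.6, 15.5 and 14.8 FPKM in the cisplatin libraries and Snhg12 at 7.2, 8.07 and 9.12 FPKM in the control libraries and 8.4, 10.3 and 7.94 FPKM in the cisplatin libraries. Both overlapped between groups and neither passed the test (Snhg6 log2 fold change -0.28, SE 0.143, adjusted p = 0.142; Snhg12 log2 fold change 0.12, SE 0.123, adjusted p = 0.432). Without control replicate 1, Snhg6 passed lower (-0.45). Snhg20 lay at 5.9, 6.6 and 6.32 FPKM in the control libraries and 7.63, 8.13 and 8.78 FPKM in the cisplatin libraries, without overlap and higher in the scaling as deposited (log2 fold change 0.38, SE 0.0719, adjusted p = 0.00405). Epb41l4aos, which holds a small RNA gene on its own strand, lay at 43.8, 53.1 and 54.3 FPKM in the control libraries and 72.9, 73.2 and 68.6 FPKM in the cisplatin libraries and was higher in that scaling (log2 fold change 0.51, SE 0.0834, adjusted p = 0.00197). Its opposite-strand coding neighbour Epb41l4a, whose gene ends 341 bases away, fell by 3.06 on the log2 scale. Over the 15 listed hosts in the table, 13 were tested, 8 were higher, 1 lower and 4 did not pass; the lower one was Snhg18 (-1.91), below the member minimum.

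Neither of the 2 immune-linked members passed the test in the scaling as deposited. AW112010, a transcript induced by interferon in T cells and macrophages, lay at 192.2, 193.0 and 201.4 FPKM in the control libraries and 198.2, 216.4 and 200.4 FPKM in the cisplatin libraries. The groups overlapped (log2 fold change 0.07, SE 0.0428, adjusted p = 0.227). Ifngas1 lies 56143 bases from the interferon gamma gene and affects its expression. This lincRNA lay at 4.52, 4.11 and 4.33 FPKM in the control libraries and 2.95, 4.93 and 5.2 FPKM in the cisplatin libraries. Of the cisplatin libraries, 1 was below all controls and the others were above (log2 fold change -0.03, SE 0.209, adjusted p = 0.922). Ifng itself was too low to be tested, at 0.247 FPKM in controls and 0.747 FPKM with cisplatin. The third tested gene of this list, Gm14005, was no member and was lower (-1.17). Of the imprinted-locus list, 9 were in the table, 2 were tested and 1 was higher, and H19, Meg3, Rian and Mirg were all below 0.07 FPKM. Of the list linked to p53, Myc and growth, 13 were in the table, 5 were tested, 1 was higher and 1 lower. Neither list had a member.

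**Figure D2:**
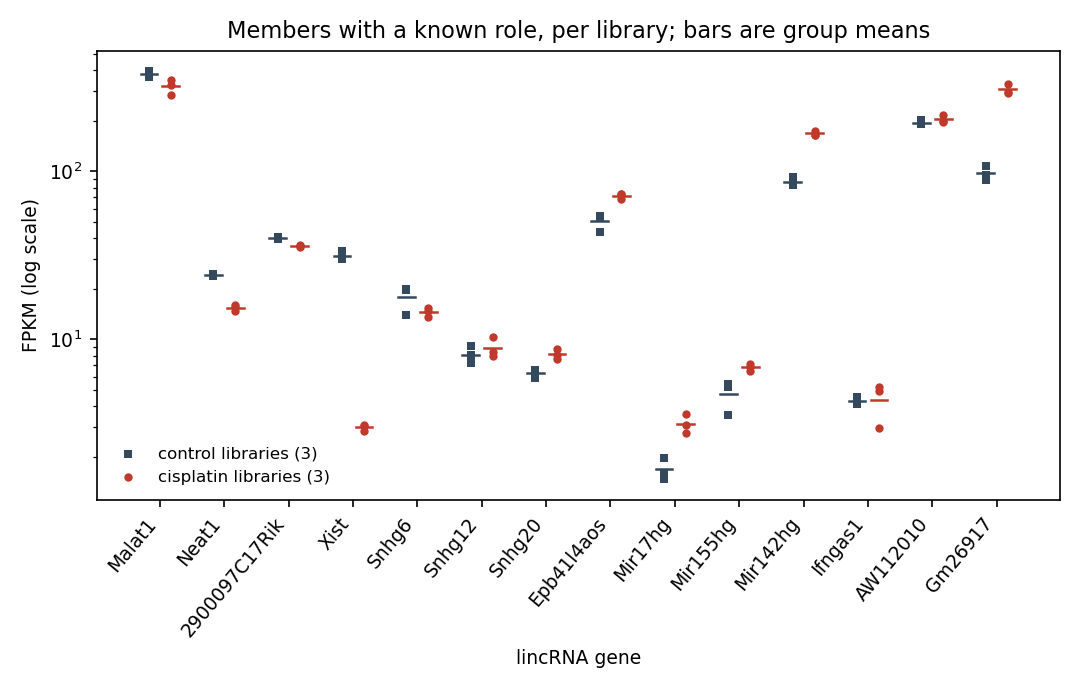
FPKM (log scale) of 14 lincRNA genes with a known role or list entry in each of the 3 control (squares) and 3 cisplatin (circles) libraries, with short bars at the group means. Xist fell from 31.2 to 3.004 FPKM, Gm26917 and the 3 listed microRNA hosts were higher with cisplatin in the scaling as deposited, and Snhg6, Snhg12, Ifngas1 and AW112010 overlapped between groups.

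Among the called members, the falls were larger than the rises. The choice of members bears on this. Of those called lower, 12 reached the 2 FPKM minimum only through the control mean, and 3 of those called higher only through the cisplatin mean. The sizes were not compared with those over all called genes. Over the 22 genes called lower, the median log2 fold change was -2.92 (from -5.20 to -1.04), the median control level 7.54 FPKM and the median cisplatin level 1.36 FPKM. None of the 22 overlapped between groups, which the calling rule largely brings about, and 11 had a cisplatin mean under 1 FPKM. The ID8 tumour markers moved the same way in the same libraries (median -2.29), and their part in these falls was not tested. The largest fall was that of Gm12505, at 6.12, 5.02 and 6.63 FPKM in the control libraries and 0.204, 0 and 0.0408 FPKM in the cisplatin libraries, which is 5, 0 and 1 reads with cisplatin against 139, 114 and 154 in controls (log2 fold change -5.204, SE 0.417, adjusted p = 6.24e-05). At such counts the fitted fold change depends on the pseudocount of 0.1 FPKM, and it ranged from -6.95 to -2.68 over the alternatives. Gm20442 lay at 5.75, 2.98 and 5.7 FPKM in the control libraries and 0.251, 0.245 and 0.0627 FPKM in the cisplatin libraries (log2 fold change -4.12). Gm12840 lay at 8.02, 7.02 and 5.77 FPKM in the control libraries and 0.69, 0.193 and 0.295 FPKM in the cisplatin libraries (log2 fold change -3.95). For these 3 genes the cisplatin libraries were near the limit of detection.

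Gm29371, A330074K22Rik, AI427809 and Gm12514 followed, with log2 fold changes of -3.89, -3.798, -3.66 and -3.39. AI427809 was the best covered of the 4, at 10.4, 9.49 and 10.9 FPKM in the control libraries and 0.652, 0.904 and 0.625 FPKM in the cisplatin libraries (log2 fold change -3.66, SE 0.143, adjusted p = 2.25e-06). Gm13431 lay at 8.09, 7.5 and 8.04 FPKM in the control libraries and 1.61, 0.623 and 0.562 FPKM in the cisplatin libraries; cisplatin replicate 1 was above the other two, yet far below the controls (log2 fold change -3.09, SE 0.352, adjusted p = 3.48e-04). With Xist between them and Gm33424 (-2.94) after them, these made up the 10 largest falls.

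The most abundant of the 22 was Gm26809 (chr6:18844220-18847360, mm10), with 254.3, 252.0 and 239.3 FPKM in the control libraries and 32.2, 31.8 and 35.5 FPKM in the cisplatin libraries. Its control mean was 7.5 times its cisplatin mean, from 3105 to 3429 reads in each cisplatin library (log2 fold change -2.904, SE 0.0507, adjusted p = 1.13e-07). Gm20186, which overlaps it on the other strand, lay at 8.66, 9.78 and 13.7 FPKM in the control libraries and 3.38, 3.28 and 2.97 FPKM in the cisplatin libraries (log2 fold change -1.68, SE 0.166, adjusted p = 1.71e-04). The strand setting of the read counting was not stated, so reads of this pair cannot be told apart. Their nearest coding gene, Lsm8, starts 372 bases from Gm20186 on the opposite strand and did not pass the test (log2 fold change -0.19, SE 0.0773, adjusted p = 0.0808).

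The other members called lower were named after their values were seen. 4930461G14Rik lay at 48.99, 54.8 and 57.6 FPKM in the control libraries and 13.3, 14.9 and 11.9 FPKM in the cisplatin libraries (log2 fold change -2.003, SE 0.0943, adjusted p = 5.16e-06), and G930009F23Rik at 21.95, 20.2 and 20.7 FPKM in the control libraries and 3.07, 3.04 and 2.76 FPKM in the cisplatin libraries (log2 fold change -2.79, SE 0.0617, adjusted p = 2.28e-07). Both were well covered and tight in each group. Gm36535 (-2.66), 4833415N18Rik (-2.94), Gm44658 (-2.61), Gm13056 (-2.07), Gm12349 (-2.07) and Gm13387 (-1.498) were lower too, in log2 fold change. The smallest falls were those of Mirt1, first described in the infarcted heart, at 8.97, 8.94 and 8.52 FPKM in the control libraries and 4.23, 3.89 and 4.2 FPKM in the cisplatin libraries (log2 fold change -1.08, SE 0.058, adjusted p = 8.91e-06), and Dubr, a lincRNA of muscle differentiation, at 12.5, 11.4 and 11.2 FPKM in the control libraries and 5.05, 6.35 and 5.59 FPKM in the cisplatin libraries (log2 fold change -1.04, SE 0.0914, adjusted p = 1.00e-04). Both lie close to the 2-fold minimum: Mirt1 was not called in 2 and Dubr in 5 of the 19 settings, Dubr among them without cisplatin replicate 1 and without control replicate 1. The other 20 were called in all 19.

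Among the 7 called higher, Gm26917 stood apart by its level, at 95.03, 108.3 and 88.5 FPKM in the control libraries and 298.7, 333.2 and 291.4 FPKM in the cisplatin libraries (log2 fold change 1.66, SE 0.0845, adjusted p = 7.10e-06). It was the only one of the 7 called in all 19 settings. Gm26917 (chr17:39843013-39846341, mm10) is a single exon of 3329 bases with 69.1% G and C, from a locus whose sequence overlaps that of ribosomal RNA. Gm42418 and AY036118, annotated at the same kind of sequence, were listed at 0 in every library. How reads with several matches were counted was not stated, and the part of ribosomal RNA in the Gm26917 value was not tested.

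The other 6 were of low level, with a median over all 7 of 2.18 FPKM in controls and 4.61 FPKM with cisplatin. Gm33104, whose nearest coding gene is Ifngr1, lay at 3.16, 2.59 and 2.61 FPKM in the control libraries and 6.19, 7.39 and 6.87 FPKM in the cisplatin libraries (log2 fold change 1.26, SE 0.106, adjusted p = 7.96e-05). Gm26520 lay at 1.31, 1.22 and 1.01 FPKM in the control libraries and 2.8, 3.14 and 2.78 FPKM in the cisplatin libraries (log2 fold change 1.24). Gm31812, 932 bases from the end of Stat4, lay at 1.34, 1.74 and 2.51 FPKM in the control libraries and 4.81, 3.82 and 3.64 FPKM in the cisplatin libraries (1.13). Gm33994 lay at 2.26, 1.8 and 2.47 FPKM in the control libraries and 4.11, 4.25 and 5.47 FPKM in the cisplatin libraries (1.05). Gm26551 spans Tcf7 and further genes, 8 on its own strand and 9 on the other, so that reads may be shared; it lay at 2.01, 2.5 and 2.26 FPKM in the control libraries and 4.07, 5.14 and 5.72 FPKM in the cisplatin libraries (1.097). Gm43698 had the largest fitted rise and the least certain one, at 0.284, 1.8 and 1.25 FPKM in the control libraries and 3.34, 3.35 and 2.81 FPKM in the cisplatin libraries; control replicate 1 rested on 6 reads, and the call was lost in 8 of the 19 settings, including the removal of any single cisplatin library or of control replicate 3 (log2 fold change 1.71, SE 0.562, adjusted p = 0.0377). Gm33994 was not called without cisplatin replicate 3 or without control replicate 2, Gm26551 not without cisplatin replicate 3, and Gm31812 not without control replicate 1.

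**Figure D3:**
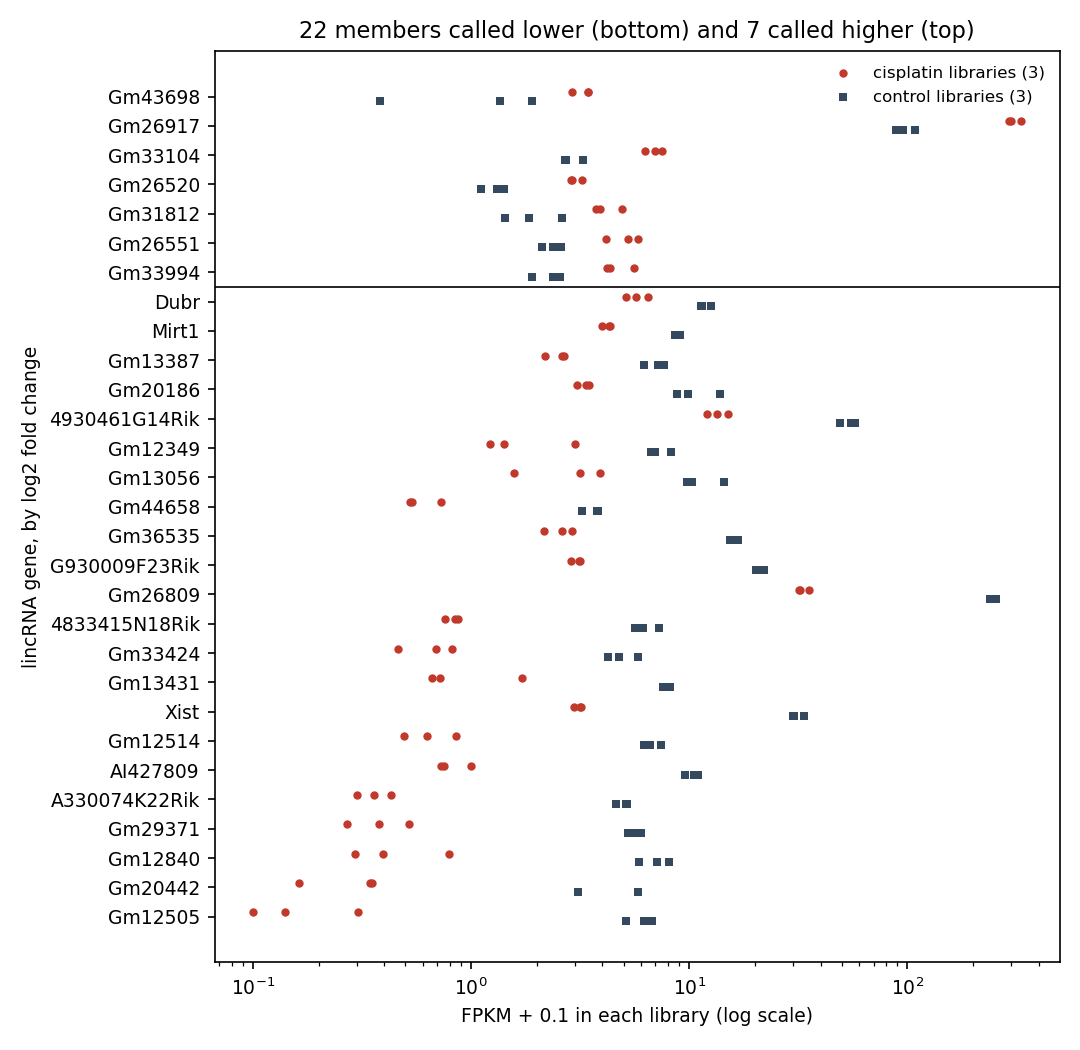
FPKM plus 0.1 (log scale) of the 29 called lincRNA genes in each of the 3 cisplatin (circles) and 3 control (squares) libraries, ordered by log2 fold change, with the 7 called higher above the line and the 22 called lower beneath it. In every gene the cisplatin and control values did not overlap, which the calling rule largely brings about.

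The remaining 114 members were not called. Of these, 53 passed the test higher with log2 fold changes from 0.32 to 0.996 (median 0.58), 12 passed lower from -0.95 to -0.11, and 49 did not pass, from -0.83 to 0.63. Those next to the 2 FPKM minimum show what it did: just inside lay Gm44658 (2.005 FPKM), Gm43690 (2.01 FPKM) and Bc1 (2.01 FPKM), and just outside A530017D24Rik (1.99 FPKM), Gm27042 (1.99 FPKM) and B230217O12Rik (1.999 FPKM). Of the 284 lincRNA genes between 0.5 and 2 FPKM, 32 were called lower and 17 higher. Over all tested genes, 12.8% were called lower and 4.11% higher, and no result about the 284 genes is drawn from their counts. The spread between replicates followed the counts. The median coefficient of variation over the members was 10.4% with cisplatin and 10.6% in controls, but 30.9% for the 16 members with under 50 reads per library on average and 5.11% for the 39 with at least 500.

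Many lincRNA genes lie beside a protein-coding gene, and the 2 can share a promoter or reads. The median gap to the nearest coding gene was 4394 bases, and 121 members had a nearest coding gene that was tested. Among the 65 with that gene within 5 kb, the log2 fold changes of lincRNA and coding gene had the same sign in 47 (across genes, Pearson r = 0.31, Spearman rho = 0.53). At 5 to 50 kb it was 28 of 40 (r = 0.73, rho = 0.55), and beyond 50 kb 4 of 16 (r = -0.39, rho = -0.27). These are descriptions across genes, which share the same 6 libraries and are not independent. No same-sign share for unrelated gene pairs was worked out beside them. Of the 15 members called lower whose nearest coding gene was tested, 8 had a neighbour called lower too, all 8 between 5 and 50 kb. Over all 15874 tested genes, 12.8% were called lower, and a share for coding genes alone was not worked out. The 8 pairs are a description, and a local link was not tested. The 8 include Gm12505 with Rad23b (-1.72), Gm12514 with Zfp462 (-3.50) and Gm20442 with Ddr1, a collagen receptor (-2.44). Also among them are Gm13431 with Ptgs1, a cyclooxygenase of prostaglandin synthesis (-2.06), and Gm33424 with Nfil3 (-1.45). AI427809 went the other way, since its nearest coding gene, the cholesterol exporter Abca1, was higher (1.08). Abca1 lies 101461 bases away, in the class beyond 50 kb.

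Of the 6 members called higher with a tested neighbour, none had one called higher, and 4 had one that passed higher by less than 2-fold: Tcf7 (0.66), a T-cell transcription factor, Ifngr1 (0.84), Stat4 (0.34) and Zfp281 (0.76). Slc30a9, beside Gm43698, was lower (-0.78). Some further pairs at genes of T cells are given as examples. Gm44174, 143 bases from Cd8a, lay at 54.3, 56.5 and 52.5 FPKM in the control libraries and 69.5, 71.7 and 79 FPKM in the cisplatin libraries (log2 fold change 0.43), against 0.43 for Cd8a. Gm44175, which overlaps Gm44174 on the other strand, was at 0.49. Gm39323 beside Thy1 was at 0.32 against 0.38, and AI504432 beside the potassium channel gene Kcna3 at 0.88 against 0.82. Gm10688, further from Thy1, was at -0.02 and did not pass. The sign was the same in 47 of the 65 pairs within 5 kb, and other close pairs went apart. Among these were Gm36738 (-0.95), 1628 bases from Rac2 (0.49), and Gm26517 (0.60), which overlaps Heatr5a (-0.56). Apart from Gm44174, these lincRNA genes were named after their values were seen, and pairs were not chosen by a list.

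**Figure D4:**
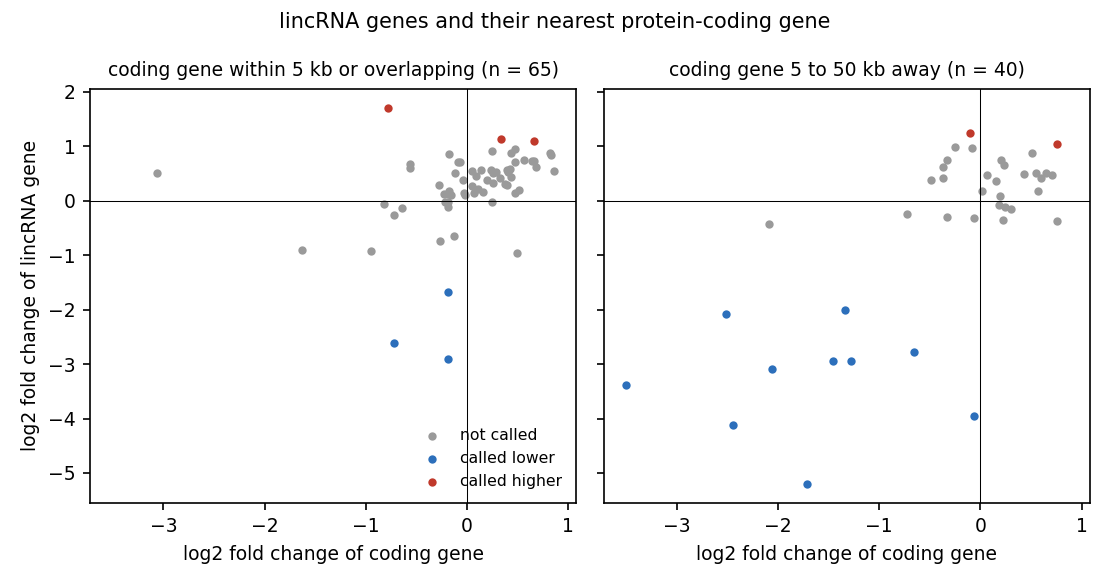
Log2 fold change (cisplatin minus control) of each lincRNA gene against that of its nearest tested protein-coding gene, for 65 pairs within 5 kb or overlapping (left) and 40 pairs 5 to 50 kb apart (right). On the right, the members called lower (blue) mostly sit with a lower coding gene; on the left, Epb41l4a at -3.06 lies beside a higher lincRNA.

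By their coordinates, 76 members overlapped no other gene on either strand, and 14 of these were called lower and 5 higher. Over all 15874 tested genes, 12.8% were called lower and 4.11% higher. A share for genes without an overlap was not worked out. Reads with several matches could still be shared, so this split cannot show that reads were unshared. The 8 called lower that did overlap were Xist, Gm26809, Gm20186, Gm29371, A330074K22Rik, Gm12514, Mirt1 and Dubr, each with a gene on the other strand and, for Xist, also on its own. The 22 called lower had a median summed exon length of 955.5 bases, against 1423 for the 7 called higher and 1793 for the 114 not called. Their longest transcripts had a median of 3 exons, against 2 in the other two classes, and 1 of 22 was a single exon, against 26 of the 114 not called. G and C content was similar, with medians of 49.5%, 47.4% and 47.4%.

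Promoter sequences are given as a description, and their part in the differences was not tested. RefSeq windows of 250 bases before to 50 after the start (GRCm38.p6) were found under the symbol of 65 members, and 47 of these lay within 500 bases of the start in the table, 8 of them for members called lower and 2 for members called higher. Searched on both strands, the AP-1 motif TGACTCA was in 2 of the 8 and in none of the other 39. That is 4.255% of the 47 member windows, against 5.202% of all 32851 promoter windows. The TEAD motif GGAATG was in 2 of the 8, in 9 of the 47 and in 14.66% of all. The RUNX motif TGTGGT was in 1 of the 8, in 6 of the 47 and in 16.76% of all. The HIF core ACGTG was in 2 of the 8, in 13 of the 47 and in 19.62% of all. With 8 windows these are descriptions only, and a match is not a bound site. The 3 windows of members called lower that hold an AP-1 match or more than 1 TEAD match are shown 5′ to 3′ on the strand of the gene, with the matches of these 4 motifs in capitals:
4930461G14Rik (chr9:58454923-58455222, plus strand): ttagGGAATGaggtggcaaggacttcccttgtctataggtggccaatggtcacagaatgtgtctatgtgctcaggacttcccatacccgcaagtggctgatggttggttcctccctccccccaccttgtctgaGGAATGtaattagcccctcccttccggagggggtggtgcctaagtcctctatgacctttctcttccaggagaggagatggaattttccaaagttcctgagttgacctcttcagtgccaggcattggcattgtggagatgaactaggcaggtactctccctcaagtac
A330074K22Rik (chr8:120228181-120228480, minus strand): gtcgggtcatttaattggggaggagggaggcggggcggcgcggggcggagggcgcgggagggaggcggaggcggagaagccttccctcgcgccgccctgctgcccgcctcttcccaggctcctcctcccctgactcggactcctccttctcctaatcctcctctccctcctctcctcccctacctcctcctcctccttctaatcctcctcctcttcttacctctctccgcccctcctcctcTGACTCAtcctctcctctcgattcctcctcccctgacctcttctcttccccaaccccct
Mirt1 (chr19:53464747-53465046, minus strand): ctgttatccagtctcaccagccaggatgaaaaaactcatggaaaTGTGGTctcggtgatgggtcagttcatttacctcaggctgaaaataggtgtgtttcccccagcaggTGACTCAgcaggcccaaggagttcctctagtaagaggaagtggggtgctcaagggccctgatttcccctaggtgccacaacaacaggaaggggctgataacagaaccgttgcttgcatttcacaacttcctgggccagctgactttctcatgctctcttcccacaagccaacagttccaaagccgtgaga

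The first of these holds the TEAD motif at 2 places, the second the AP-1 motif close to the start of the transcript, and the third an AP-1 and a RUNX match. CpG dinucleotides per window were also unlike between them, at 2, 17 and 3, against a median of 7 over all promoter windows and 10.5 over the 8 windows of members called lower.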

How the data were processed

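The deposited gene table gave FPKM per library, gene type, length and mm10 coordinates, which matched GENCODE M21 for 139 of the 143 members. Per the labels, poly-T-selected RNA was primed with random hexamers, and the submitters' processing notes name fastp, HISAT2 2.0.5 and featureCounts 1.5.0-p3; the study's methods name LifeScope as the aligner, and the authors tested raw counts, not used here. Strand setting and multiple matches were not stated. Each FPKM value gave whole reads (100% within 0.1 read) from 30606569 to 32169496 per library. The library total behind FPKM was 0.976 to 0.982 times these reads in controls and 1.030 to 1.049 times with cisplatin. How that total was set was not stated. The median log2 fold change of all tested genes was 0.028 with FPKM and 0.0998 with voom on rebuilt reads. Here log2(FPKM + 0.1) was tested over the 15874 genes averaging 0.5 FPKM or more with limma 3.58.1 (R 4.3.3; trended variance, Benjamini-Hochberg adjustment), cisplatin against control, 3 libraries each. Called means adjusted p under 0.05 and at least 2-fold; fold changes are on the log2(FPKM + 0.1) scale, which understates changes of low genes, and a p by exact permutation could not go below 0.1. The test was also run on simulated reads with the same spread setting for every gene and no shift in cell make-up. That run therefore cannot speak for noisier genes or for such shifts. The named genes were the 10 highest members, the 10 largest falls and rises called, members on 11 gene lists (150 symbols, 9 absent from the table) and those beside the 2 FPKM minimum. Members and lists were chosen with earlier results of these data known. Alternatives varied pseudocount, filter, scaling, variance prior, test on reads, fold threshold, replicates and pairing.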

Additional observations from a re-analysis of the deposited data

How the results depend on the processing

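The count of 22 members called lower stayed within 20 to 23 under every alternative run except centring on T-cell identity genes, which gave 32. The count of 7 called higher was less stable: 3 with a pseudocount of 1 FPKM, 15 with quantile normalization, 1 after centring on T-cell identity genes, 12 with voom on rebuilt reads (21 lower) and 11 with a treat test at a fold change of 1.5, and 6 to 9 when 1 library was left out. A pseudocount of 1 FPKM gave 20 lower and one of 0.01 FPKM 22 lower and 10 higher. By adjusted p alone, that centring left 66 members lower and 16 higher. The median log2 fold change of the members was 0.38 with quantile normalization, 0.28 with voom, -0.34 after the centring, and 0.15 to 0.29 with 1 library left out; the first of these shifted the median of all tested genes to 0.16 and the centring to -0.51. After the centring the sign turned for 21 of the 60 members that had passed higher. Among all members named in the text it turned for AU020206 (-0.0288), AW112010 (-0.47), Epb41l4aos (-0.0222), Gm43690 (-0.36), Gm44174 (-0.11), Snhg12 (-0.41), Snhg20 (-0.16), Gm44175 (-0.0468), Gm39323 (-0.22) and E130102H24Rik (-0.13). It also turned for Gm43690 without control replicate 1 (-0.0225), and for Ifngas1 with quantile normalization (0.15), with voom (0.0586), without cisplatin replicate 1 (0.23) and without control replicate 1 (0.0047), while the value without cisplatin replicate 3 was -0.1734, against the standard error of 0.209. Without control replicate 3, Gm43690 was at 0.4051. Malat1 also missed the adjusted p threshold with no filter and with no trend. AW112010 passed higher with voom (0.15) but lower after the centring (-0.47). Ifngas1, Snhg6, Snhg12 and Gm10688 also passed lower after the centring (-0.56, -0.81, -0.41 and -0.55). Gm10076 passed lower both with voom (-0.61) and after the centring (-1.23). E130102H24Rik passed higher with voom (0.49). With the replicate number as a block, 22 were lower and 7 higher, Malat1 no longer passed (adjusted p = 0.0634), and Snhg6 (0.0476) and Bc1 (0.0253) did. Whether the numbers pair the libraries is not stated. Deviations of same-numbered libraries correlated at 0.023, -0.063 and -0.021, and not every library correlated best with its own number. Such correlations cannot exclude a shared mouse or day. An alternative added after seeing the data kept the 76 members that overlap no other gene (14 lower, 5 higher). Depth limits members under 50 reads per library, and the causes of these changes were not tested.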
